A study of Danio rerio with 6 samples.

Results

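The genes described here encode the digestive enzymes of the pancreas and the intestine, in RNA sequencing libraries of sorted zebrafish cells. They were chosen by name: every gene of the count table whose symbol begins with a name of a trypsin, chymotrypsin, elastase, carboxypeptidase, amylase, pancreatic lipase or its cofactor, secretory granule protein, brush border hydrolase or acidic chitinase. The name patterns took 53 of the 32520 genes in the table, and 5 of the 53 (PRSS12, prss59, CPA6, CPAMD8 and cpap) share only a prefix or a family name with the pancreatic enzymes. Symbols for the lipase genes pnlip and clps and for the brush border glycosidases si and mgam matched no gene, and those genes were not analysed here.

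The embryos came from a transgenic line in which sp7 sequences drive green fluorescent protein (GFP), and GFP-positive cells were labelled as embryonic osteoblasts. The exposed group (3 libraries) received 200 nM bisphenol A (BPA), a chemical with estrogenic activity, from 24 hours post fertilization, and the control group (3 libraries) was run beside it. Both were collected at 4 days post fertilization from pooled embryos, 400 per arm. Whether replicate libraries stand for separate embryo pools is not stated in the labels, so p values measure the spread between these libraries, which may be technical. The content of the control medium is not stated, although BPA stocks were made in dimethyl sulfoxide.

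Acinar cells of the exocrine pancreas make most digestive enzymes as inactive precursors, store them in zymogen granules and release them into the gut. There enteropeptidase activates trypsin, which in turn activates chymotrypsins, elastases and carboxypeptidases, while amylase and lipases are secreted in active form or with a cofactor. Peptidases on the brush border of enterocytes complete the digestion of peptides. Zebrafish have no stomach, and the pancreatic enzymes are among the most strongly transcribed genes of the larval digestive tract.

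Total counts ranged from 30748435 to 43403568 per library. Levels are given as CPM, the counts of a gene relative to the total of its library after TMM scaling (trimmed mean of M values), in the order control 1, 2 and 3 and exposed 1, 2 and 3. They count reads per gene and not per length, so levels of different genes are not ranked. The osteoblast label can be set beside its markers. SP7, the gene behind the reporter, stood at 6.87 ± 1.55 CPM (SD, n = 3) in the controls and 8.49 ± 0.355 CPM after exposure. Its groups overlapped and it did not pass (adjusted p = 0.175 by edgeR). Of the type I collagen alpha 1 genes, COL1A1 (ENSDARG00000035809) rose from 2715 ± 23.8 to 4037 ± 15.6 CPM while col1a1a fell from 3048 ± 82.7 to 2718 ± 52.0 CPM. The osteocalcin gene bglap was at 0 counts throughout. The related gene bglapl had 2 to 22 counts per library. These markers come from a list of 26 genes, 25 of them tested. In the edgeR test given below 5 of the list rose, 7 fell and 13 did not pass, beside 20.1% higher and 18.7% lower of all genes tested. Digestive enzyme genes are not osteoblast genes. In the control libraries they summed to 5952, 5592 and 5818 CPM, so their transcripts were part of every sorted library.

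The 53 genes summed to 3609, 3700 and 3768 CPM after exposure, which all lay below the controls. The mean of the sum was 5787 ± 182 CPM (SD, n = 3) in the controls and 3692 ± 80.0 CPM after exposure, a 1.57-fold decrease (two-sided exact permutation p = 0.1, the minimum possible for 3 against 3). In bulk RNA, fewer cells of a type and less RNA per cell cannot be told apart. Nor can either be told apart from a different share of other cells or of free RNA in the sorted samples, which was not tested. The sum hides a division inside the enzyme families: several genes with the most counts in the controls fell about 2-fold, and paralogs of the same classes rose, some more than 3-fold.

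Of the 53 genes, 48 passed the filter on low counts. In edgeR's quasi-likelihood test with Benjamini-Hochberg adjustment over all genes, 15 of the 48 rose (31.2%), 16 fell (33.3%) and 17 did not pass an adjusted p of 0.05; of all genes tested 20.1% rose and 18.7% fell. The 31 called genes are 64.6% of those tested, against 38.8% of all 21194 genes tested in the same comparison. Called at 2-fold or more were 9 higher and 6 lower genes, or 18.8% and 12.5%, against 5.59% and 3.5% of all genes. Among all genes with a mean of at least 100 CPM the share called was 74.9%, with 36.6% higher and 38.2% lower. The digestive enzyme genes held 12 genes at that level, of which 10 fell and 2 rose. The median log2 fold change was -0.05 over the 48 genes (-0.27 without those caught by name alone) and -0.003 over all genes tested. Control and exposed values were fully apart for 37 of the 48 (77.1%), against 48.4% of all genes tested.

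**Figure D1:**
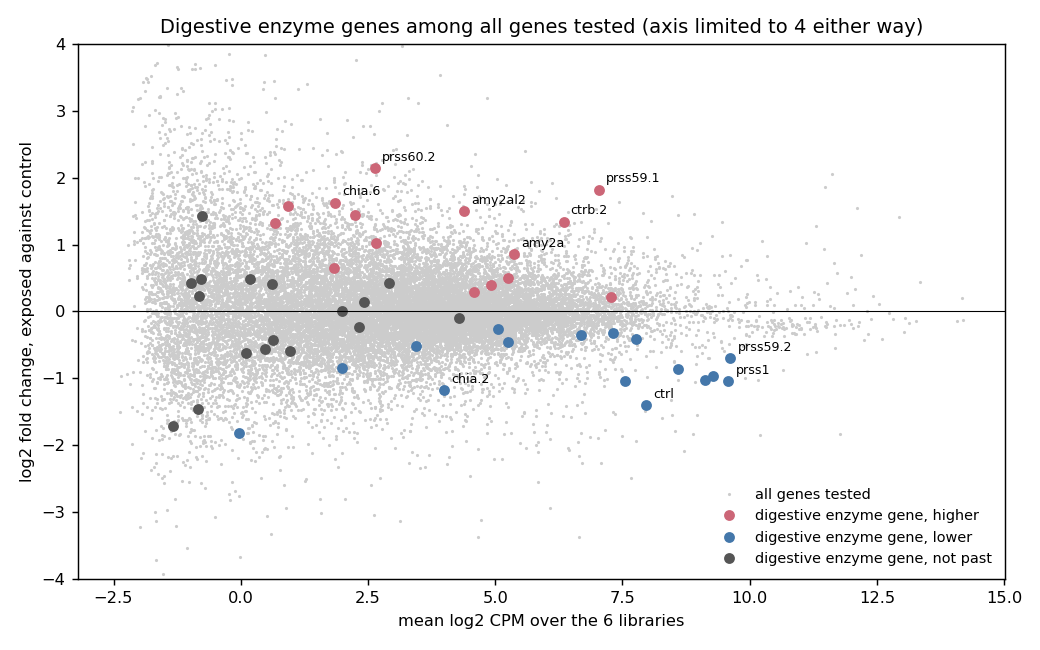
Each grey point is 1 of the 21194 genes tested, with the mean log2 CPM over the 6 libraries on the x axis and the log2 fold change of exposed against control on the y axis, which is limited to 4 either way. The 48 tested digestive enzyme genes are drawn large, 15 higher in red, 16 lower in blue and 17 not past the test in dark grey; at the right end the called genes lie mostly below 0, while prss59.1 and ctrb.2 lie above 1.

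Trypsins cut dietary protein after basic residues. Here prss1 and prss59.2 fell and prss59.1 and prss60.2 rose. Levels of prss1 (ENSDARG00000042993) were 1085, 982.5 and 1033 CPM in controls and 485, 495 and 521.5 CPM after exposure, a 2.06-fold decrease (log2 fold change of -1.05 ± 0.05, SE; adjusted p = 2.76e-20). All exposed values lay below all control values by a wide gap. Levels of prss59.2 (ENSDARG00000073742) were 1012, 937 and 977 CPM in controls and 578, 600.2 and 624 CPM after exposure (log2 fold change of -0.70 ± 0.05, SE; adjusted p = 1.76e-16). Its neighbour in the order of genes, prss59.1 (ENSDARG00000079274), went the other way, from 63.5, 53.8 and 56.7 CPM to 200.0, 211 and 204 CPM. This was a 3.54-fold increase (log2 fold change of 1.82 ± 0.07, SE; adjusted p = 3.01e-22). The trypsin-like gene prss60.2 (ENSDARG00000055644) rose from 2.74, 2.29 and 1.74 CPM to 10.5, 9.04 and 10.5 CPM, a 4.42-fold increase (log2 fold change of 2.14 ± 0.20, SE; adjusted p = 3.66e-10). In each of these 4 genes the 3 exposed libraries stood together, apart from the 3 controls.

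Among the other trypsin-like genes, prss60.3 had 7, 6 and 18 counts in the controls and 20, 26 and 46 after exposure and did not pass (adjusted p = 0.117). The gene prss60.1 had 0 counts in every library. A count of 0 sets an upper limit of 3 counts if counts are independent, and for counting error only. Relative to the library total before TMM scaling this is at most 0.0932 CPM in a control and 0.0976 CPM in an exposed library. If the mates of a pair were counted separately, which is not stated, the limit is higher. The enteropeptidase gene tmprss15, no member of the group, was low at 0.565 ± 0.350 and 0.359 ± 0.188 CPM (SD, n = 3 per group; adjusted p = 0.561).

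Chymotrypsins cut after large hydrophobic residues, and their 4 genes repeated the pattern, with 3 lower and 1 higher. Of all genes tested, 18.7% were lower and 20.1% higher. Levels of ctrb.1 (ENSDARG00000090428) were 760.4, 735 and 758 CPM in controls and 361, 367 and 374.5 CPM after exposure (log2 fold change of -1.03 ± 0.02, SE; adjusted p = 3.96e-21). Levels of ctrb.3 (ENSDARG00000039730) were 261.5, 236 and 262 CPM against 119.9, 120.3 and 129 CPM (log2 fold change of -1.04 ± 0.06, SE; adjusted p = 1.16e-17). The decreases were alike in size, 2.04-fold for ctrb.1 and 2.05-fold for ctrb.3. The chymotrypsin-like gene ctrl (ENSDARG00000068680) fell further, from 368.5, 369 and 356 CPM to 132, 135 and 145 CPM, or 2.65-fold (log2 fold change of -1.40 ± 0.04, SE; adjusted p = 3.01e-22). Between ctrb.1 and ctrb.3 in the order of genes lies ctrb.2 (ENSDARG00000093844), which rose from 49.3, 47.5 and 40.5 CPM to 120.0, 113 and 116 CPM, or 2.54-fold (log2 fold change of 1.34 ± 0.09, SE; adjusted p = 3.71e-17). Thus the middle gene of 3 neighbours rose while the genes on either side fell.

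**Figure D2:**
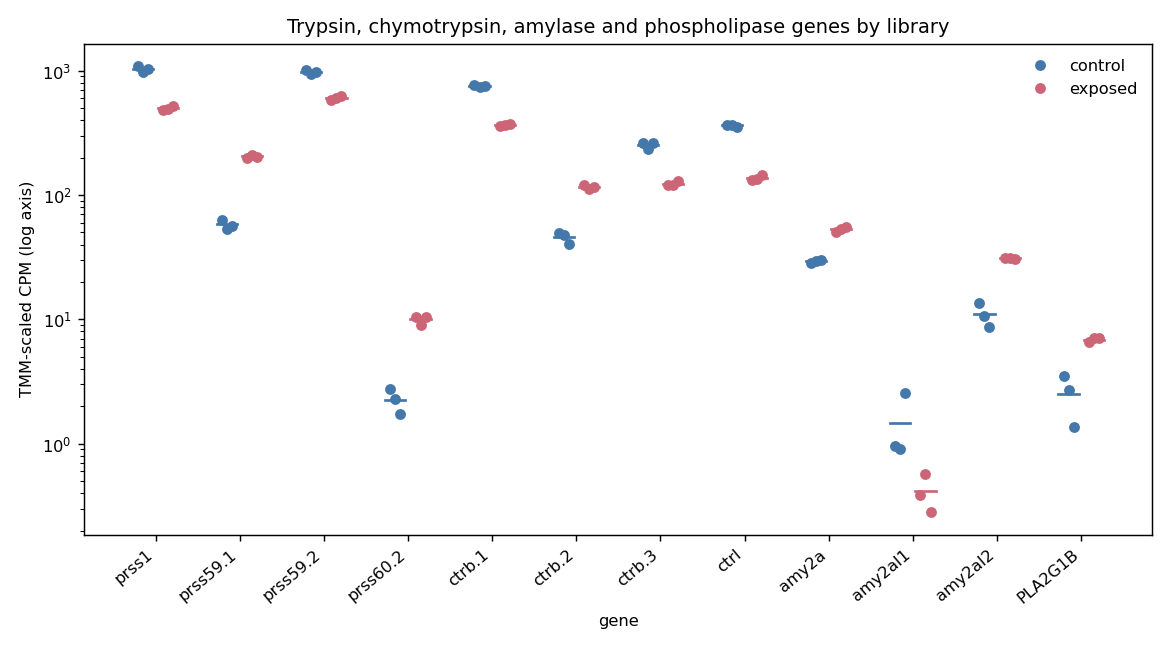
The y axis gives TMM-scaled CPM on a log axis for the tested trypsin, trypsin-like, chymotrypsin, amylase and phospholipase genes other than prss60.3; each point is 1 library, blue for control and red for exposed, and each short line is the mean of 3 libraries. For prss1, prss59.2, ctrb.1, ctrb.3, ctrl and amy2al1 the red points lie below the blue ones, and for prss59.1, prss60.2, ctrb.2, amy2a, amy2al2 and PLA2G1B above them.

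Elastases cut after small hydrophobic residues. Of 10 elastase genes tested, 4 fell and 2 rose, and 4 did not pass, beside 18.7% lower and 20.1% higher of all genes tested. The decreases were led by a gene named CELA1 (ENSDARG00000017314), from 512, 477 and 498 CPM to 264, 276 and 275 CPM (log2 fold change of -0.87 ± 0.04, SE; adjusted p = 3.88e-18). The other 3 decreases were smaller. In each the groups did not overlap, which also held for 48.4% of all genes tested. Levels of ela2 (ENSDARG00000056744) were 257, 234 and 250.2 CPM against 182, 189 and 188 CPM (log2 fold change of -0.41 ± 0.04, SE; adjusted p = 1.72e-09). Levels of ela3l (ENSDARG00000007276) were 191, 166 and 174 CPM against 135, 142 and 147 CPM, a log2 fold change of -0.32 ± 0.07 SE. For cela1.4 (ENSDARG00000043171) they were 37.5, 36.3 and 35.1 CPM against 29.7, 30.1 and 30.8 CPM, a log2 fold change of -0.27 ± 0.03 SE with an adjusted p of 0.00562 by edgeR.

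The 2 elastase genes that rose were ela2l, which neighbours ela2 and carries ctrc and elastaseB among its RefSeq synonyms, and cela1.3, which neighbours cela1.4. Levels of ela2l (ENSDARG00000056765) were 136, 136 and 155 CPM in controls and 161, 168 and 167 CPM after exposure (log2 fold change of 0.22 ± 0.06, SE; adjusted p = 3.96e-04). The highest control library came close to the lowest exposed one. Levels of cela1.3 (ENSDARG00000043173) were 0.483, 0.614 and 1.58 CPM against 1.82, 2.62 and 2.18 CPM (log2 fold change of 1.32 ± 0.51, SE; adjusted p = 0.0113). This call rests on few counts, 18 to 51 in the controls: without exposed library 2 its adjusted p was 0.0825, and without control library 3, the highest control, its log2 fold change was 2.00. The elastase genes that did not pass were cela1.2, cela1.5, cela1.7 and a second gene named CELA1 (ENSDARG00000043175), with means between 0.797 and 2.31 CPM in either group and log2 fold changes from -0.62 to -0.44.

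Carboxypeptidases remove residues from the carboxyl end of peptides, the A type mainly hydrophobic and the B type basic ones. Of 4 such genes tested, 3 fell and 1 rose, beside 18.7% lower and 20.1% higher of all genes tested. A gene named CPA1 (ENSDARG00000021339) fell from 824, 799 and 837 CPM to 415, 425 and 420.3 CPM, or 1.95-fold (log2 fold change of -0.96 ± 0.02, SE; adjusted p = 1.45e-20). The other gene of that name (ENSDARG00000030915) rose from 4.97, 3.04 and 4.37 CPM to 9.03, 8.64 and 7.44 CPM, or 2.03-fold (log2 fold change of 1.02 ± 0.22, SE; adjusted p = 8.54e-05). Thus 2 genes under 1 symbol moved in opposite directions. CPB1 (ENSDARG00000045442), a carboxypeptidase B gene, fell from 121, 108 and 117 CPM to 93.2, 93.1 and 85.6 CPM (log2 fold change of -0.35 ± 0.06, SE; adjusted p = 3.21e-06), a smaller decrease than that of the first CPA1 gene, with the groups apart.

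**Figure D3:**
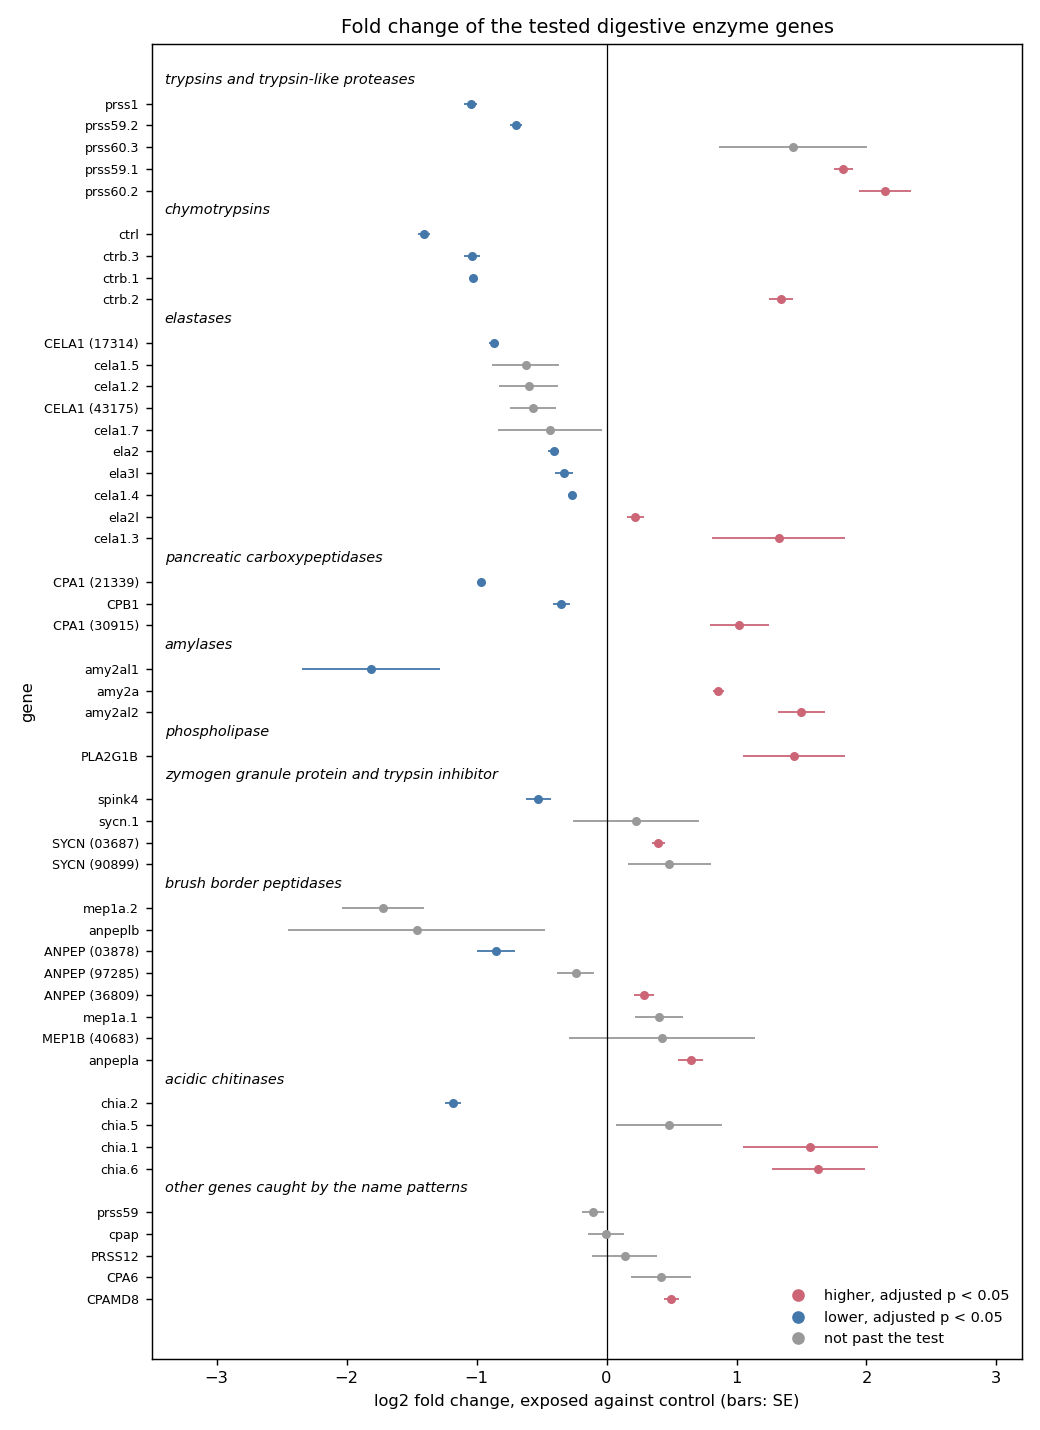
Points give the log2 fold change of exposed against control for the tested digestive enzyme genes reported here, ordered by class on the y axis, with bars of 1 SE; red marks genes called higher, blue genes called lower and grey genes that did not pass, and digits in parentheses are the last 5 of the gene identifier where a symbol is shared. In the trypsin, chymotrypsin, elastase and carboxypeptidase classes both colours appear, from -1.40 for ctrl to 2.14 for prss60.2.

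Among the enzymes of starch digestion, 2 amylase genes rose and 1 fell, beside 20.1% higher and 18.7% lower of all genes tested. The alpha-amylase gene amy2a (ENSDARG00000013856) rose from 28.3, 29.6 and 29.8 CPM to 50.8, 52.9 and 55.3 CPM (log2 fold change of 0.86 ± 0.04, SE; adjusted p = 2.22e-11). Its relative amy2al2 (ENSDARG00000009443) rose from 13.5, 10.6 and 8.74 CPM to 30.9, 31.3 and 30.8 CPM, or 2.82-fold (log2 fold change of 1.50 ± 0.18, SE; adjusted p = 7.40e-12). In both the exposed libraries lay well above the controls. The remaining gene, amy2al1 (ENSDARG00000030357), had 36, 40 and 82 counts in the controls and 12, 24 and 12 after exposure (log2 fold change of -1.81 ± 0.53, SE; adjusted p = 0.0106). The call was lost without control library 3, the highest control: without it the log2 fold change was -1.18 and the adjusted p 0.173, and without exposed library 3 the adjusted p was 0.0533.

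PLA2G1B (ENSDARG00000009153), the pancreatic phospholipase A2, rose from 3.49, 2.68 and 1.36 CPM to 6.53, 7.09 and 7.02 CPM, or 2.72-fold (log2 fold change of 1.44 ± 0.40, SE; adjusted p = 1.86e-05). The 2 genes named CEL stand outside the name patterns and were looked up after the values were seen, because RefSeq gives Cel as a synonym of cel.1, a bile salt activated lipase gene. Unlike PLA2G1B, both fell. ENSDARG00000017490 went from 61.3, 56.1 and 61.6 CPM to 43.7, 46.4 and 43.5 CPM (adjusted p = 3.52e-06 by edgeR). ENSDARG00000029822 went from 39.6, 44.7 and 41.8 CPM to 20.5, 21.6 and 23.2 CPM (adjusted p = 8.07e-11 by edgeR). Among these genes of fat digestion, the phospholipase gene thus rose and the 2 CEL genes fell, while pnlip and clps were not analysed.

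Summed by class, the 4 protease classes were lower in every exposed library than in any control library, and the amylases were higher. Trypsins and trypsin-like genes summed to 2069 ± 94.1 CPM (SD, n = 3) in the controls and 1317 ± 43.2 CPM after exposure. Chymotrypsins went from 1414 ± 26.3 to 744.9 ± 18.1 CPM, elastases from 1106 ± 43.0 to 802 ± 20.2 CPM, and carboxypeptidases from 983 ± 25.7 to 551 ± 9.53 CPM. Amylases went from 41.7 ± 0.937 to 84.4 ± 2.18 CPM, a 2.02-fold difference. Such separation was not particular to these classes. It also held for the chitinases (lower), the phospholipase (higher) and the granule protein and inhibitor genes, from 40.1 ± 0.915 to 44.9 ± 0.316 CPM. The genes caught by name alone separated too, from 67.1 ± 4.20 to 81.4 ± 1.64 CPM. Each of these contrasts had a two-sided exact permutation p of 0.1, the smallest possible with 3 against 3 libraries, or 0.111 after Benjamini-Hochberg adjustment over the 10 classes, so none could pass 0.05. Within a group, the 12 genes of at least 100 CPM varied by a coefficient of variation of 1.88% to 8.61% in the controls and 1.29% to 5.02% after exposure. In control library 1, 11 of those 12 lay above the control mean, and in control library 2 only 1 did, with median log2 deviations of 0.05 and -0.07.

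**Figure D4:**
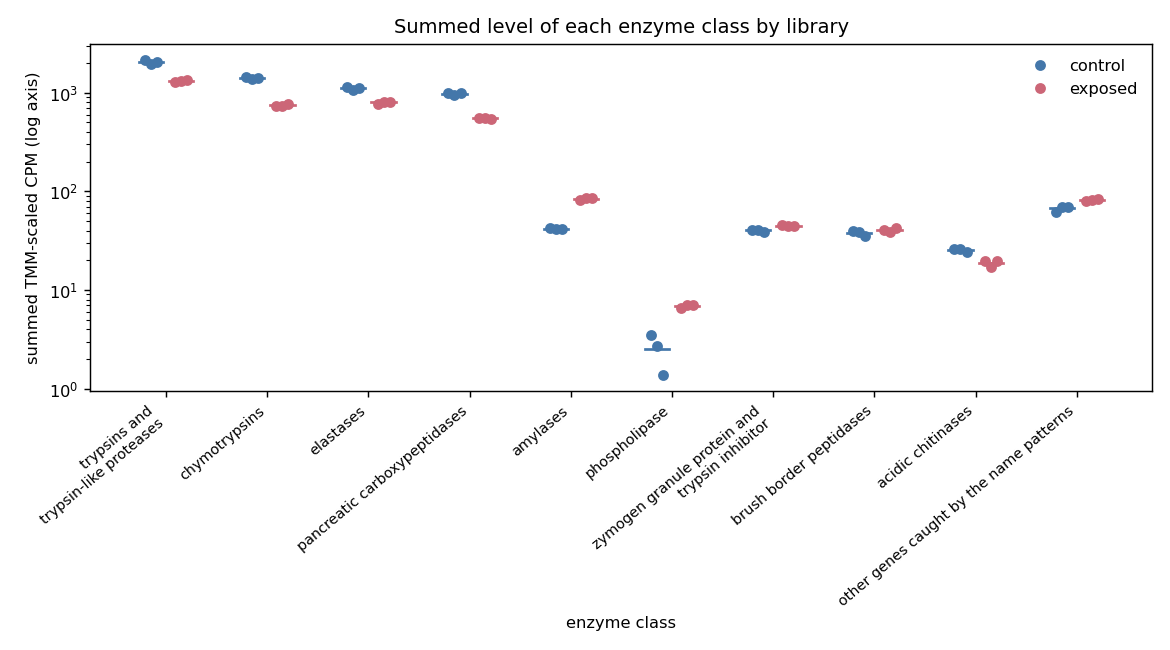
The y axis gives the summed TMM-scaled CPM of each enzyme class on a log axis; each point is 1 library, blue for control and red for exposed, and each short line is the mean of 3 libraries. The 4 protease classes and the chitinases lie lower after exposure. The amylases, the phospholipase, the granule protein and inhibitor genes and the genes caught by name alone lie higher, and the brush border peptidases overlap.

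Since counts of 2 genes in 1 library share its depth and scaling, the make-up of a class does not depend on normalization. The share of trypsin-class counts held by prss59.1 was 2.94%, 2.72% and 2.74% in the controls and 15.7%, 16.0% and 14.98% after exposure, while that of prss1 went from 49.9 ± 0.199% to 38.0 ± 0.357% (SD, n = 3 per group). The share of prss59.2 changed little beside these, from 47.1 ± 0.318% to 45.6 ± 0.251%. In the chymotrypsin class, ctrb.2 held 3.42%, 3.43% and 2.86% of the counts in the controls and 16.4%, 15.3% and 15.2% after exposure. The share of ctrl went from 25.8 ± 0.753% to 18.5 ± 0.489%. In the elastase class, ela2l went from 12.9 ± 0.926% to 20.6 ± 0.126% and CELA1 (ENSDARG00000017314) from 44.8 ± 0.341% to 33.9 ± 0.137%. In the carboxypeptidase class, CPA1 (ENSDARG00000021339) went from 83.4 ± 0.423% to 76.2 ± 1.03%. The share of CPB1 went from 11.7 ± 0.422% to 16.4 ± 0.617%, although its level fell, by less than that of this CPA1 gene. The CPA1 gene that rose (ENSDARG00000030915) went from 0.42 ± 0.0916% to 1.52 ± 0.138%.

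**Figure D5:**
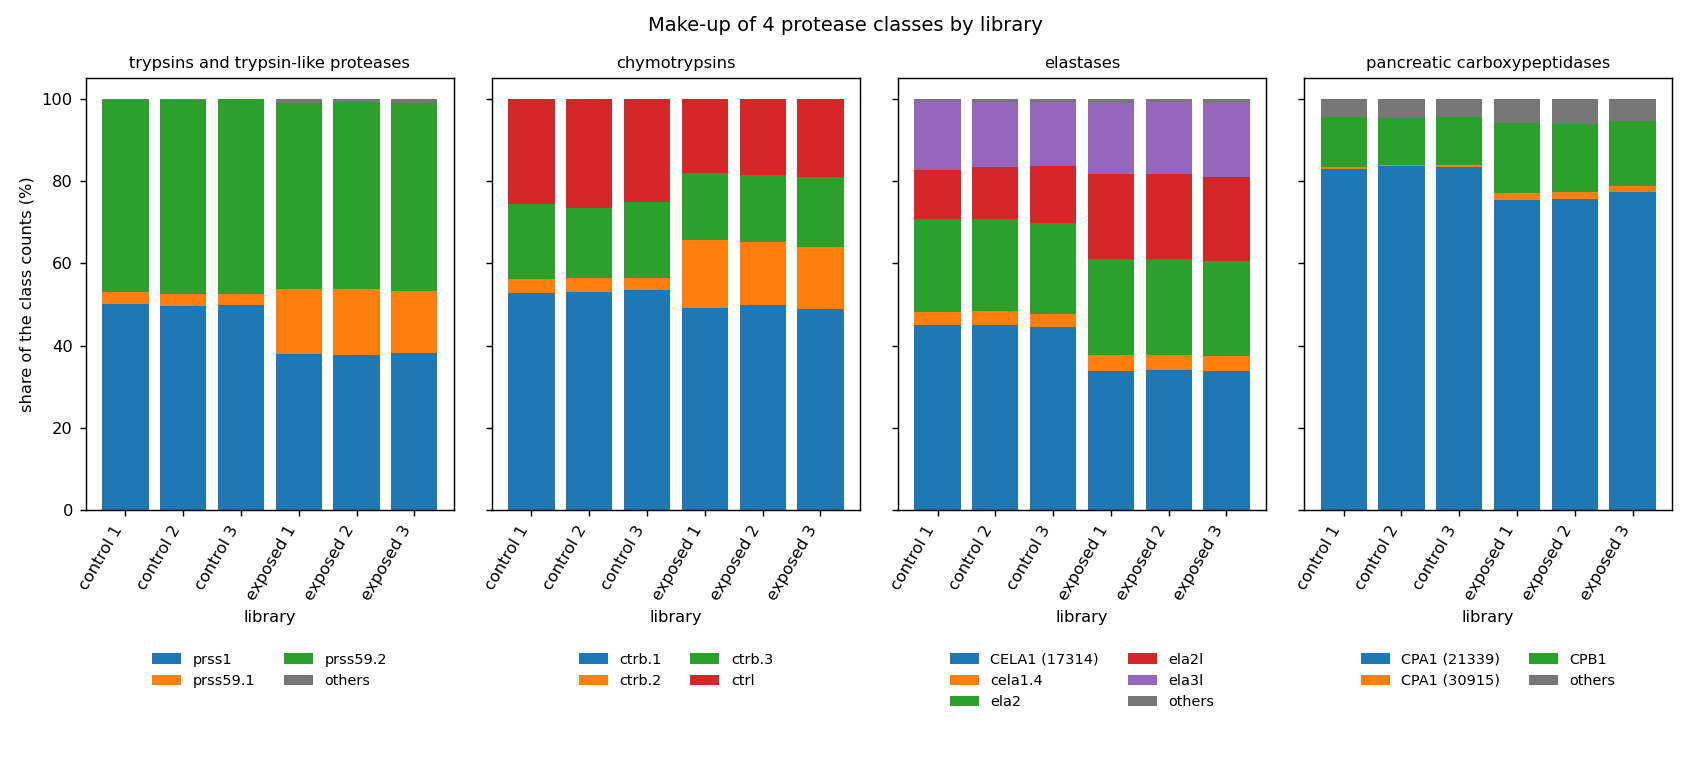
Stacked bars give the share of counts of each class (%) held by each gene in each library, for 4 protease classes; genes under 1% in both groups, and any not reported here, are pooled as others, and digits in parentheses are the last 5 of the gene identifier. The bands of prss59.1 and ctrb.2 are near 3% in every control library and between 14.98% and 16.4% in every exposed library.

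Ratios of counts between paralogs restate these changes within each library. The 8 pairs were chosen after the values were seen, each with a gene that rose over one that fell or rose less. Their direction was thus set by the choice, and the ratios are descriptions. The ratio of prss59.1 to prss59.2 counts was 0.0627, 0.0574 and 0.0581 in the controls and 0.346, 0.352 and 0.327 after exposure, 5.75 times higher. The ratio of ctrb.2 to ctrb.1 was 0.0648, 0.0647 and 0.0535 against 0.332, 0.306 and 0.311, 5.19 times higher. The ratio of ela2l to ela2 rose less, from a mean of 0.576 ± 0.0440 to 0.888 ± 0.00407 (SD, n = 3). In all 8 pairs the exposed ratios lay above the control ratios, the direction that the choice of pairs had set. Whether reads that fit more than 1 paralog were counted is not given in the sources used here, and the sharing of reads among paralogs was not tested, so the level of any one of them is uncertain.

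Of the granule protein and inhibitor genes, SYCN (ENSDARG00000103687), which encodes the zymogen granule protein syncollin, rose from 27.6, 25.8 and 24.5 CPM to 34.1, 34.0 and 34.6 CPM (log2 fold change of 0.40 ± 0.05, SE; adjusted p = 2.01e-04). The Kazal-type protease inhibitor gene spink4 (ENSDARG00000091609) fell from 11.6, 13.1 and 13.6 CPM to 9.74, 8.66 and 8.28 CPM (log2 fold change of -0.52 ± 0.10, SE; adjusted p = 0.00259). In both genes the groups stood apart, by less than in the amylases. A second SYCN gene (ENSDARG00000090899) and sycn.1, both under 1.3 CPM in either group, did not pass (adjusted p = 0.444 and 0.834 by edgeR).

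Brush border peptidases act at the surface of enterocytes and, for aminopeptidase N (ANPEP), on other cells too. Of 8 tested, 2 rose and 1 fell, and 5 did not pass, beside 20.1% higher and 18.7% lower of all genes tested. The ANPEP gene ENSDARG00000036809 rose from 21.9, 22.4 and 20.7 CPM to 25.7, 24.6 and 29.0 CPM (log2 fold change of 0.29 ± 0.08, SE; adjusted p = 0.0145). That call was lost without exposed library 3, its highest (adjusted p = 0.136). The ANPEP gene ENSDARG00000103878 fell from 5.75, 5.00 and 4.28 CPM to 2.47, 2.81 and 3.04 CPM (log2 fold change of -0.85 ± 0.15, SE; adjusted p = 0.00338). Another ANPEP gene, ENSDARG00000097285, at 5.39 ± 0.434 and 4.58 ± 0.704 CPM (SD, n = 3), did not pass (adjusted p = 0.380). Levels of anpepla were 2.74 ± 0.262 and 4.31 ± 0.310 CPM (adjusted p = 0.0277), a call that was lost without each of 5 libraries, with adjusted p between 0.0502 and 0.1004. The related gene anpeplb and the meprin protease genes mep1a.1, mep1a.2 and MEP1B (ENSDARG00000040683) did not pass, and another MEP1B gene (ENSDARG00000037533) had 0 counts in every library. Summed, these peptidases stood at 37.7 ± 2.35 CPM in the controls and 40.7 ± 2.14 CPM after exposure, and the groups overlapped (exact permutation p = 0.2).

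Acidic chitinases cut chitin, a component of the larval prey. Of 4 tested, 2 rose and 1 fell, and 1 did not pass, beside 20.1% higher and 18.7% lower of all genes tested. The gene chia.2 (ENSDARG00000099185) fell from 22.1, 23.6 and 20.5 CPM to 9.87, 9.90 and 9.45 CPM, or 2.27-fold (log2 fold change of -1.18 ± 0.06, SE; adjusted p = 6.01e-10). Its neighbour chia.1 (ENSDARG00000100635) rose from 30, 38 and 36 counts to 90, 52 and 175 counts, uneven between the exposed libraries (log2 fold change of 1.57 ± 0.52, SE; adjusted p = 0.00163). Without exposed library 3 its adjusted p was 0.0675. The gene chia.6 (ENSDARG00000093193) rose from 2.36, 1.00 and 1.86 CPM to 5.23, 5.35 and 5.45 CPM (log2 fold change of 1.63 ± 0.36, SE; adjusted p = 1.32e-05). Counts of chia.4 were 0 in each control and 28, 3 and 4 after exposure, and those of chia.3 were 0, 4 and 10 against 2, 10 and 2; both were too few to test. The gene chia.5 did not pass (adjusted p = 0.623).

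The 5 genes caught by name alone showed 1 call, beside calls in 38.8% of all genes tested. CPAMD8 (ENSDARG00000056530), of the alpha-2-macroglobulin family, rose from 29.2, 33.2 and 32.0 CPM to 44.1, 44.3 and 45.1 CPM (log2 fold change of 0.50 ± 0.06, SE; adjusted p = 2.07e-06). CPA6, an extracellular carboxypeptidase gene, was at 4.62, 7.27 and 7.38 CPM against 8.51, 9.42 and 7.86 CPM (adjusted p = 0.0632, and 0.0311 without control library 3). PRSS12, the neurotrypsin gene, was at 5.21, 3.54 and 6.45 CPM against 5.59, 5.52 and 5.57 CPM (adjusted p = 0.646 by edgeR), the exposed values lying inside the control range. The gene prss59, which RefSeq also lists as prss16, was at 19.8, 20.6 and 20.3 CPM against 17.2, 18.5 and 20.9 CPM (adjusted p = 0.473 by edgeR). The centriole gene cpap was at 3.93 ± 0.536 and 3.94 ± 0.399 CPM (SD, n = 3; adjusted p = 0.997).

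Regulators and secretory machinery of acinar cells were looked at beside the enzymes, as a list of 31 genes. Of these, 28 were tested, with 6 higher, 4 lower and 18 not past the test, beside 20.1% higher and 18.7% lower of all genes tested, and a median log2 fold change of -0.17. PTF1A, the transcription factor gene of acinar cells, was at 1.58 ± 0.382 CPM in the controls and 1.57 ± 0.0588 CPM after exposure (SD, n = 3; adjusted p = 0.999). Its partner RBPJL was at 0.581 and 0.470 CPM, BHLHA15 at 0.449 and 0.785 CPM and NR5A2 at 4.87 and 3.46 CPM, with adjusted p of 0.780, 0.403 and 0.0945 by edgeR. The smallest p belonged to SOX9 (ENSDARG00000003293), a symbol of duct and cartilage cells, which fell from 52.7 ± 4.56 to 30.5 ± 2.35 CPM. Another SOX9 gene (ENSDARG00000043923) did not pass, at 52.4 ± 3.18 and 57.5 ± 2.34 CPM (adjusted p = 0.0967 by edgeR). The listed symbol was sox9b, and which SOX9 gene it stands for was not settled. Next came ITPR3, a calcium release channel gene, which rose from 16.0 ± 1.25 to 29.3 ± 3.27 CPM. It was followed by foxa3, a transcription factor gene of gut and liver, which rose from 8.53 ± 0.472 to 13.9 ± 2.22 CPM. The disulfide isomerase gene pdia2, made in acinar cells in mammals, fell from 61.9 ± 7.03 to 48.2 ± 5.05 CPM. CCKAR, the receptor gene for the hormone that triggers enzyme release, rose from 2.53 ± 0.736 to 4.92 ± 1.26 CPM. These calls are of edgeR's test over all genes, and the list's sum overlapped between the groups, at 604 to 635 CPM in the controls and 602 to 624 CPM after exposure. The largest part of that sum was XBP1, at 269 ± 4.57 and 271 ± 3.08 CPM (adjusted p = 0.823 by edgeR). The sum therefore says little about low genes such as PTF1A.

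Markers of neighbouring organs moved in the same libraries. Beside the counts that follow, 20.1% of all genes tested rose and 18.7% fell. Of 35 enterocyte markers tested, 20 fell and 1 rose, and 14 did not pass (median log2 fold change -0.88), and their summed level was 843 to 892 CPM in the controls and 384 to 405 CPM after exposure, with slc26a3.1 at 0 counts throughout. The genes with the smallest p were PCK1, of gluconeogenesis, from 223 to 46.3 CPM, RBP2 (ENSDARG00000093774), of retinol transport, from 78.4 to 18.9 CPM, and the apolipoprotein gene apoa4b.1, from 162 to 56.5 CPM. Of 25 liver markers 23 fell and 2 did not pass (median -1.56), and their sum was 8558 to 8711 CPM against 4685 to 4873 CPM. The largest part of that sum was RBP4, at 3473 and 3180 CPM, with a log2 fold change of -0.13. The sum therefore fell by less than most of the listed genes. The apolipoprotein gene apoa2 fell from 1855 to 517 CPM and fabp10a, of fatty acid transport in the liver, from 675 to 158 CPM. Of 18 endocrine pancreas genes 8 fell, 1 rose and 9 did not pass (median -0.40), with a sum of 179 to 199.5 CPM against 138 to 141 CPM. The smallest p was that of scg2b, a secretory granule gene, which fell from 28.7 ± 2.22 to 13.7 ± 0.918 CPM. The one that rose was ins, the insulin gene, from 6.92 ± 0.438 to 12.9 ± 0.859 CPM (SD, n = 3; adjusted p = 5.17e-06). The osteoblast and bone matrix list held 5 higher, 7 lower and 13 genes not past the test, among them 2 POSTN genes that moved in opposite directions (ENSDARG00000104267 from 966 to 1337 CPM and ENSDARG00000043806 from 164 to 113 CPM), and summed to 12530 to 12820 CPM in the controls and 14720 to 14810 CPM after exposure. The part of these cell types in the enzyme values was not tested.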

How the data were processed

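Unnormalized counts of reads, 1 value per Ensembl gene and library, were deposited. The submitters' processing notes name the build GRCz11 and the tools featureCounts 2.0.6, STAR 2.7.10a, FastQC and R 4.4.2; options, strand setting and annotation release are not given in the sources used here. The even share of nonzero counts was 80.2% to 81.7% in the controls and 76.1% to 78.5% after exposure. Genes with at least 1 count numbered 22887 to 23253 in a control and 23917 to 24236 in an exposed library. Both values thus separated the groups, and the cause was not tested. Whether the mates of a pair were counted separately is not stated. Symbols came from a table naming 29201 of the 32520 genes. RefSeq GRCz12tu served only for synonyms and gene order.

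Genes were filtered with filterByExpr (minimum count 10, minimum total 15), scaled by TMM and tested with a robust quasi-likelihood F-test in edgeR 4.0.16 (R 4.3.3, limma 3.58.1, statmod 1.5.0), exposed against control, with Benjamini-Hochberg adjustment over all genes and a threshold of 0.05. Each SE comes from the spread of log2 CPM (prior count 2) within the groups. Sums per library were compared by a two-sided exact permutation test. Values in every library are given for genes with a mean of at least 5 CPM, or called with a log2 change of at least 1; of the other lists, the regulators ptf1a, rbpjl, bhlha15, nr5a2 and tmprss15 and up to 5 genes with the smallest p were eligible, and further genes there were chosen after their values were seen. The genes, lists and named pairs were chosen with earlier results of these data known. DESeq2 1.42.0, other scalings and filters, halved counts, a replicate block and leaving out each library were tried. Not every gene is reported here by name; tests, sums and gene counts cover all of them.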

Additional observations from a re-analysis of the deposited data

How the results depend on the processing

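The counts of 15 higher and 16 lower digestive enzyme genes kept within 1.5 times under each alternative: 12 to 16 higher and 15 to 17 lower without 1 library, 16 and 16 with DESeq2 or with counts halved, 17 and 16 with no filter, and 15 and 16 with a minimum count of 30 or with either other scaling. Over all genes, leaving out 1 library gave 3484 to 4240 higher and 3215 to 3823 lower. The 3 scalings put the median log2 fold change of all genes at -0.0029, -0.0047 and -0.0076. The median over the digestive enzyme genes stayed below 0. Its spread was taken as the SD of the median over the exposed libraries, each against the control mean, which leaves out the spread between controls. The median moved by more than this spread with DESeq2 (-0.10), with no filter (-0.10) and with a minimum count of 30 (-0.17). It stayed within that spread with either other scaling, with counts halved and with the replicate number as a block. Without 1 library it ranged from -0.116 to -0.039. That was past the spread without control library 1 (-0.116) and within it without control library 2 (-0.077) or 3 (-0.061). In alternatives added after seeing the data it was -0.17 with the 2 CEL genes and -0.27 without the genes caught by name alone. The cause of these moves was not tested. Of the 31 called genes, 26 kept the call without any 1 library, and cela1.3, amy2al1, ANPEP (ENSDARG00000036809), anpepla and chia.1 did not. The log2 fold change of PRSS12, not called, turned to -0.067 without control library 2, in a range up to 0.346 without control library 3. CPA6 passed with no filter (adjusted p = 0.0448), with counts halved (0.0491) and without control library 2 (0.0411) or 3 (0.0311). With the replicate number as a block the counts were 16 and 16, with CPA6 called (adjusted p = 0.0461). Same-numbered libraries did not deviate together (correlations across genes of -0.013, -0.004 and 0.012). Such values cannot show that the libraries were not paired, and the labels do not state what a replicate is. Matching RefSeq symbols by Ensembl identifier was not run, since that table pairs no identifiers. Depth limits the genes under 1 CPM, where counts are low. For example, amy2al1 at 0.39 CPM in exposed library 1 had 12 counts, and cela1.3 at 0.48 CPM in control library 1 had 18.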

Other observations

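Among islet genes, of which 8 fell and 1 rose of 18 tested, the glucagon gene gcga fell from 15.1, 10.6 and 10.2 CPM to 8.54, 6.40 and 7.35 CPM (edgeR adjusted p = 8.91e-04) and the somatostatin gene sst1.2 from 5.55 ± 0.148 to 3.78 ± 0.126 CPM (SD, n = 3 per group; adjusted p = 0.0289 by edgeR). The list of lysosome-rich enterocyte and secretory gut cell genes had 11 tested, with 3 higher, 3 lower and 5 not past the test, beside 20.1% higher and 18.7% lower of all genes tested. The cathepsin gene ctsl.1 rose from 35.6 ± 2.03 to 82.2 ± 6.52 CPM, and AGR2, a goblet cell disulfide isomerase gene, from 136 ± 3.21 to 162 ± 4.91 CPM. The neuropeptide and gut hormone genes vipb, PYY and ADCYAP1 fell, vipb from 9.10 ± 0.652 to 5.09 ± 0.398 CPM and PYY from 8.54 ± 0.717 to 5.52 ± 0.521 CPM, while CCK, at 3.05 ± 0.525 and 1.97 ± 0.189 CPM, did not pass (adjusted p = 0.0762 by edgeR). The genes gcga, sst1.2 and CCK were chosen after their values were seen.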
